A study of Homo sapiens with 2 samples.

Results

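The 10 RNAs described here are noncoding hosts of small nucleolar RNAs (snoRNAs): GAS5, SNHG1, SNHG5, SNHG6, SNHG8, SNHG12, SNHG15, SNHG16, ZFAS1 and EPB41L4A-AS1. They were taken by gene symbol from a list, out of 19052 genes with a row in either deposited table, and all 10 had reads in both libraries. Total RNA came from TSU-Pr1, a bladder carcinoma line of human origin that the treatment label calls K12 cells. By the series title, cells of both groups stably express KLF5, a zinc-finger transcription factor. In the siCINP library the cells had received siRNA against CINP, whose product is a cyclin-dependent kinase partner. In the siCtrl library they had received a control siRNA. RNA was taken 48 h after transfection, with 1 library in each of the 2 groups. Whether the KLF5 line is 1 clone, and which siRNA sequences were used, is not given in the sources used here.

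A snoRNA host gene is transcribed by RNA polymerase II, and its snoRNAs are cut out of the spliced introns. Box C/D snoRNAs guide 2′-O-methylation and box H/ACA snoRNAs guide pseudouridylation, mainly of ribosomal RNA. Many host RNAs begin with a terminal oligopyrimidine (TOP) tract, a C followed by pyrimidines that also opens the mRNAs of ribosomal proteins and translation factors and ties their translation to TOR signalling. Because their short reading frames end early, spliced host RNAs such as GAS5 are known targets of nonsense-mediated decay (NMD), which requires translation, and they build up when translation is blocked.

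The siCINP library held 10314147 reads and the siCtrl library 10365249. CINP had 53 reads in siCINP and 203 in siCtrl, a log2 ratio of -2.01 (95% interval -2.47 to -1.56), and KLF5 had 4077 reads in siCINP and 4013 in siCtrl. Ratios are of rounded expected counts, siCINP over siCtrl, after TMM scaling. Their exact Clopper-Pearson intervals cover counting error only, and they compare these 2 libraries, not the conditions. With no replicates there is no test and no p-value. The simple-epithelium keratins KRT8 and KRT18 had 30507 and 29477 reads in siCINP, against 29363 and 27036 in siCtrl. KRT7, KRT19, EPCAM and CDH1, 4 further epithelial markers, were higher in siCINP, with 297, 44, 15 and 75 reads there against 154, 20, 4 and 46 in siCtrl, and their part in the values of the hosts was not tested. GATA3 and PPARG, transcription factors of urothelium, had 11 and 31 reads in siCINP, against 17 and 30 in siCtrl. Defining markers of urothelium were at or near 0, since UPK1A, UPK1B and UPK3A had at most 18 reads in siCINP and 19 in siCtrl, and UPK2 had a row in neither table. Of 9 markers of other cell types only PECAM1 passed 20 reads, with 49 in siCINP and 29 in siCtrl, and CD3E, HBB, KLK3 and DES had a row in neither table.

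The promoters are shown because the start of transcription carries the TOP tract. RefSeq sequences of build GRCh38.p14 were found for 8 of the 10 hosts, and each is given from position -60 to position 40 around the annotated start, 5′ to 3′ on the gene's strand, counting from 1 at the start with no position 0. Capitals mark TATAA upstream of the start, and a C followed by 4 or more pyrimidines that begins within 10 bases of it. These locations belong to the printed sequences and not to the deposited tables, which were made on hg19.
SNHG5 (chr6:85678694-85678793, minus strand): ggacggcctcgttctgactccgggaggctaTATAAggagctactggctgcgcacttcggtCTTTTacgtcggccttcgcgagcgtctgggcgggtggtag
ZFAS1 (chr20:49278582-49278681, plus strand): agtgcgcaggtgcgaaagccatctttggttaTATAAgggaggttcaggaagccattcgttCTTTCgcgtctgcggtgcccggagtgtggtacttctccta
SNHG12 (chr1:28581834-28581933, minus strand): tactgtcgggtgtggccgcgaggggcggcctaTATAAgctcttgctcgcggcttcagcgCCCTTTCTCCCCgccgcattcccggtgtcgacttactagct
SNHG8 (chr4:118278702-118278801, plus strand): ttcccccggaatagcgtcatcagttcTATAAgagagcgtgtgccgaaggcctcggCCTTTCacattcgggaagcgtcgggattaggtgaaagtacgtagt
SNHG16 (chr17:76557704-76557803, plus strand): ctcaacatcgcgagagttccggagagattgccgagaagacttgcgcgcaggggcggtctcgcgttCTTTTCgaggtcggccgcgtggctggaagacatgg
SNHG1 (chr11:62855846-62855945, minus strand): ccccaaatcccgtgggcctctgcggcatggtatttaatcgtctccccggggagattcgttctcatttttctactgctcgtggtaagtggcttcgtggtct
GAS5 (chr1:173869006-173869105, minus strand): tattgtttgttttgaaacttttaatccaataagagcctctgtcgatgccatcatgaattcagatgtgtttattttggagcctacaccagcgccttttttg
EPB41L4A-AS1 (chr5:112160466-112160565, plus strand): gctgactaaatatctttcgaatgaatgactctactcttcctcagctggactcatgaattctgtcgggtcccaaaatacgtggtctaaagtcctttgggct

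A C with 4 or more pyrimidines near the start was found in 5 of the 8 host promoters, in SNHG5, SNHG8, SNHG12, SNHG16 and ZFAS1. The same search, on the strand of the gene, matched 31.27% of the 10382 compared genes with a promoter sequence and 85.94% of 64 ribosomal protein genes. It matched 58.33% of 12 other noncoding snoRNA hosts, a share close to that of the 8. In SNHG5 and ZFAS1 the tract began at the annotated start itself, and in SNHG12 at position -1, where it ran for 12 pyrimidines. The SNHG12 tract also holds a C followed by 4 or more pyrimidines from position 1. With it, 3 of the 8 hosts had a match at the start itself. Such a match was found in 5.38% of the compared genes, 67.19% of the ribosomal protein genes and 3 of the 12 other noncoding hosts. These shares were not tested. GAS5 and EPB41L4A-AS1 had tracts farther into the transcript, from positions 32 and 31. SNHG5 and ZFAS1 also had further tracts there, from positions 13 and 32. In SNHG1 no such tract began between 10 bases before the start and position 40. Only the annotated start of each gene was searched, and whether transcription began there in these cells was not measured.

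TATAA lay between positions -34 and -28 in SNHG5, SNHG8, SNHG12 and ZFAS1, 4 hosts that also had a tract near the start. Within 60 bases upstream of the start it occurred in 2.86% of compared genes, 4.1% of compared long noncoding RNA genes and 9.38% of the ribosomal protein genes, on the strand of the gene. Both motifs together were present in 1.11% of compared genes. Among the 12 other noncoding hosts, TATAA was present in 16.67%, all of which also had the tract. TATAA was chosen for the search after the sequences were seen, and no test was made. The E-box CACGTG, which reads the same on both strands, was found in 0 of the 8 host windows of 300 bases and in 9.96% of the compared genes.

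Per length, ZFAS1 was the most abundant of the 10 RNAs, with 274.3 FPKM in siCINP and 292.9 in siCtrl. FPKM values, deposited by the authors, are scaled for gene length and library total and allow levels of different genes to be compared. That placed ZFAS1, which is transcribed from the 5′ end of the zinc-finger gene ZNFX1 on the other strand and is known to associate with ribosomes, 179th in siCINP and 172nd in siCtrl among all listed genes. GAS5 followed with 129.5 FPKM in siCINP and 144.6 in siCtrl. Named for its accumulation in growth-arrested cells, GAS5 is also known to bind the DNA-binding domain of the glucocorticoid receptor. SNHG1, the host of the U22 snoRNA, had 108.6 FPKM in siCINP and 96.09 in siCtrl.

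The middle of the order held SNHG8 with 63.83 FPKM in siCINP and 51.06 in siCtrl, SNHG6 with 55.42 and 54.27, and SNHG16 with 36.78 and 42.27. The low end held SNHG12 with 23.27 FPKM in siCINP and 20.13 in siCtrl, SNHG5 with 21.33 and 23.75, and SNHG15 with 17.76 and 21.46. EPB41L4A-AS1 was the lowest, with 6.26 FPKM in siCINP and 8.28 in siCtrl. In both libraries ZFAS1, GAS5 and SNHG1 stood apart from each other and from the rest by Poisson intervals of their reads, as did EPB41L4A-AS1 at the other end. Neighbours whose intervals overlapped were SNHG8 and SNHG6 in both libraries, SNHG8 and SNHG16 in siCtrl, and the neighbouring hosts among SNHG12, SNHG5 and SNHG15 in both. The order within these groups is therefore not set by the reads.

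**Figure D1:**
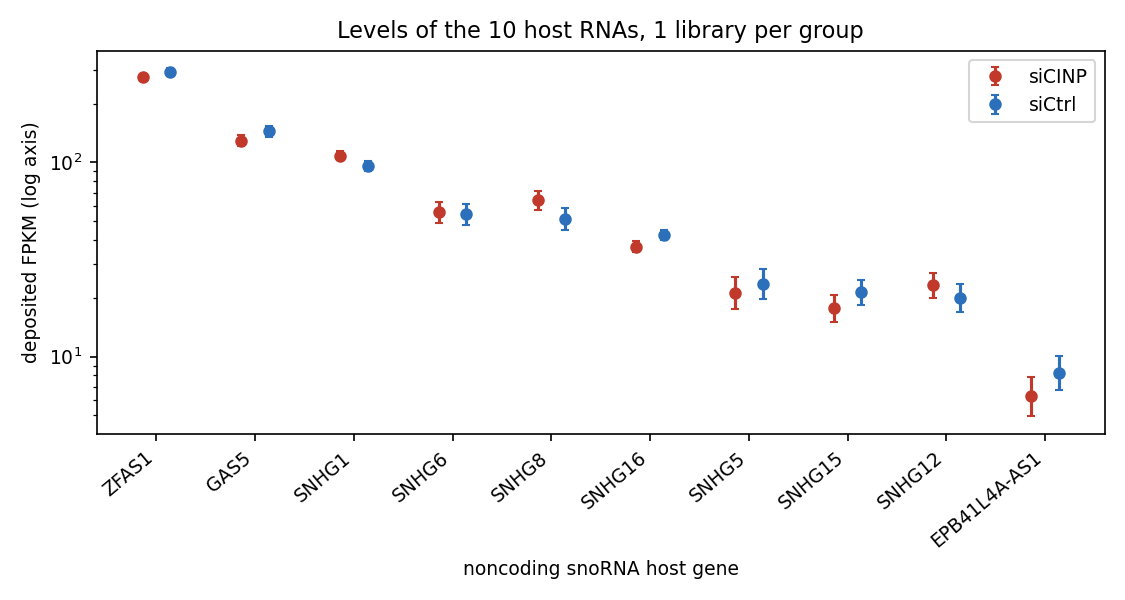
Deposited FPKM of the 10 host RNAs on a log axis, in siCINP (red, left of each pair) and siCtrl (blue), with 95% Poisson intervals of the reads; 1 library per group. ZFAS1, at 274.3 FPKM in siCINP and 292.9 in siCtrl, is highest, EPB41L4A-AS1 is lowest, and no host differs by as much as 2-fold between the libraries.

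Between the libraries the host RNAs differed by less than 2-fold and not in 1 direction, as was common among all genes, of which 88% of those compared lay within 1.5-fold. At least 2-fold higher or lower were 0 of the 10, and a count of 0 is near the background. Of all compared genes 1.69% were at least 2-fold higher with an interval above 0 and 1.41% were at least 2-fold lower with an interval below 0. A gene was compared if either library held 20 reads of it, which 13076 genes met. Among the 9134 compared genes with mean reads in the range of the hosts, from 88.5 to 2001.5, the 2-fold rule was met by 46 genes higher in siCINP and 82 lower. By the interval alone, 1 host lay above 0 and 5 lay below 0, against 18.6% of all compared genes above and 23.1% below. Both counts turn on the scaling. With library totals 2 hosts lay above 0 and 3 below, beside 3479 of all compared genes above and 2179 below, and by upper quartile the hosts were again 2 and 3, beside 2969 and 2537 genes. Under TMM the numbers for all genes were 2430 and 3023. The median log2 ratio of the hosts was -0.20, and that of all compared genes was -0.01, with quartiles of -0.21 and 0.20. Over the genes in the read range of the hosts the median was -0.02. Under the other scalings the median of all compared genes was 0.06 with library totals, 0.03 by upper quartile and 0.01 by DESeq2 scaling.

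SNHG16, the host of the SNORD1 snoRNAs, had 949 reads in siCINP and 1102 in siCtrl, a log2 ratio of -0.28 (-0.41 to -0.16). It was lower in siCINP by 1.22-fold, and it was the only host with fractional expected counts, which can mark reads shared with another gene. For GAS5, 834 reads in siCINP and 936 in siCtrl gave a log2 ratio of -0.23 (-0.37 to -0.10). ZFAS1, the deepest of the 10, had 1929 reads in siCINP and 2074 in siCtrl, a log2 ratio of -0.17 (-0.26 to -0.08). These 3 hosts were lower in siCINP under each of the 4 scalings tried.

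SNHG15, the host of SNORA9, had 149 reads in siCINP and 181 in siCtrl, and the interval of its log2 ratio of -0.35 ran from -0.67 to -0.03. EPB41L4A-AS1, the host of SNORA13, had 76 reads in siCINP and 101 in siCtrl, the lowest ratio of the 10 at -0.48 (-0.93 to -0.03). Both intervals ended close to 0 and took in 0 when the libraries were scaled to their totals, with upper ends of 0.05 for SNHG15 and 0.04 for EPB41L4A-AS1, or by the upper quartile. EPB41L4A-AS1 is further uncertain because 1659 exon bases in the GENCODE annotation are shared with EPB41L4A on the other strand, and whether counting used strand is unknown here. EPB41L4A, with fractional counts, had 506 reads in siCINP and 519 in siCtrl, a log2 ratio of -0.10 (-0.28 to 0.07).

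SNHG8, the host of SNORA24, was the only one whose interval lay above 0, with 289 reads in siCINP and 227 in siCtrl and a log2 ratio of 0.28 (0.02 to 0.54). SNHG1 had 1249 reads in siCINP and 1111 in siCtrl, a log2 ratio of 0.10 whose interval of -0.02 to 0.22 took in 0. With library totals the SNHG1 value was 0.18 (0.06 to 0.29), and its interval also lay above 0 by upper quartile and by DESeq2 scaling. SNHG12, which hosts box H/ACA snoRNAs and SNORD99, had 176 reads in siCINP and 153 in siCtrl (log2 ratio 0.13, -0.19 to 0.46). The intervals of SNHG8 and SNHG1 did not overlap those of GAS5, SNHG16 and ZFAS1, and a change of scaling moves all of them by the same amount.

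The other 2 hosts showed no difference detectable at this depth. SNHG5, the host of the U50 snoRNAs, had 109 reads in siCINP and 122 in siCtrl, a log2 ratio of -0.23 (-0.62 to 0.15). SNHG6, the host of SNORD87, had 253 reads in siCINP and 249 in siCtrl, a log2 ratio of -0.05 (-0.30 to 0.21) that was 0.03 with library totals. The 4 hosts with both TATAA and a tract near the start had values on either side of 0, with SNHG8 and SNHG12 above it and SNHG5 and ZFAS1 below it.

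**Figure D2:**
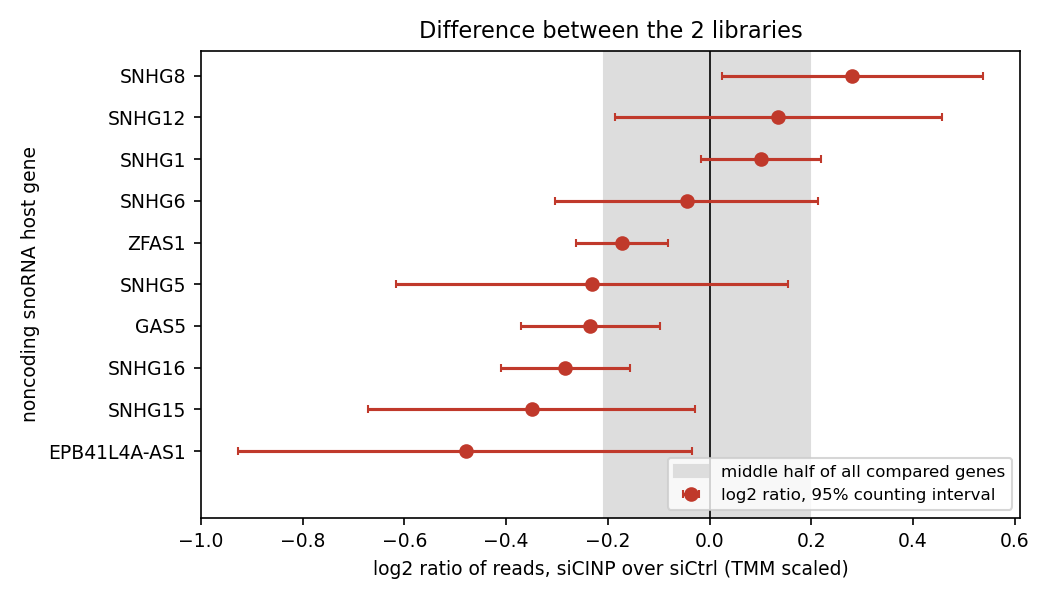
Log2 ratio of reads, siCINP over siCtrl, of each host RNA after TMM scaling (points) with exact 95% counting intervals (bars). The grey band spans the quartiles of all compared genes, -0.21 to 0.20. The interval of SNHG8 lies above 0, those of ZFAS1, GAS5, SNHG16, SNHG15 and EPB41L4A-AS1 lie below it, and those of the other 4 hosts take in 0.

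Together the 10 RNAs took 6013 reads in siCINP and 6256 in siCtrl. That is 0.0583% of all reads in siCINP (exact 95% interval 0.0568 to 0.0598) and 0.0604% in siCtrl (0.0589 to 0.0619), and these intervals overlap. After TMM scaling the log2 ratio of the sum was -0.13 (-0.18 to -0.07). It was not computed under the other scalings, which give every gene a higher ratio than TMM does. ZFAS1 held 32.1% of these reads in siCINP and 33.2% in siCtrl, SNHG1 held 20.8% and 17.8%, and SNHG16 held 15.8% and 17.6%. The sum is thus mostly a sum of few genes, and without ZFAS1 its log2 ratio was -0.10.

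Transcript choice can be followed for the 3 hosts with more than 1 transcript in the deposited tables, since their length is weighted over transcripts. SNHG8, with 3 transcripts, had a length of 468.39 bases in siCINP and 458.5 in siCtrl. For SNHG16, with 4 transcripts, it was 2498.36 bases in siCINP and 2510.02 in siCtrl, and for ZFAS1, with 5, it was 707.34 and 708.53. These lengths differed by at most 11.7 bases between the libraries, and no error can be given for them.

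The snoRNAs inside these introns had few reads. Of 34 listed snoRNAs of the 10 hosts, 28 had reads in either library and 21 in both, with at most 22 reads each. A count of 0 allows up to 3 reads, which is 0.283 CPM in siCINP and 0.297 in siCtrl. How far the library preparation kept RNAs of this length is not given in the sources used here, so these reads are no measure of snoRNA abundance. The most counted were SNORA61 of SNHG12, with 22 reads in siCINP and 12 in siCtrl, SNORD47 of GAS5, with 17 and 13, and SNORA9 of SNHG15, with 13 and 7. SNORD22 of SNHG1 had 10 reads in siCINP and 13 in siCtrl.

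The sequences of SNORA61, SNORA9 and SNORD22 are given from GENCODE 29 (GRCh38), as the most counted snoRNAs with a sequence there. Each lies inside an exon of some annotated transcript of its host, where reads of the snoRNA and of that transcript cannot be told apart. Capitals mark the ACA box near the 3′ end of the H/ACA RNAs and the D box of SNORD22.
SNORA61 (chr1:28579764-28579893, minus strand): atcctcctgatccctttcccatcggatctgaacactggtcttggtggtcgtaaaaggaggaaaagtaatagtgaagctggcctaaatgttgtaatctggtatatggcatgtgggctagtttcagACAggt
SNORA9 (chr7:44985378-44985510, minus strand): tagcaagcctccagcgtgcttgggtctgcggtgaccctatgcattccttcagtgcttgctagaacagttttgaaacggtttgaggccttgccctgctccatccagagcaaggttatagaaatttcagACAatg
SNORD22 (chr11:62852910-62853035, minus strand): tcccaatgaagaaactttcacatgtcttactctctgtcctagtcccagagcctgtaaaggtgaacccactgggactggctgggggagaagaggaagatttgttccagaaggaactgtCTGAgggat

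Summed over all 34, the snoRNAs of the hosts had 138 reads in siCINP and 100 in siCtrl, a log2 ratio of 0.40 whose interval of 0.01 to 0.78 ended close to 0. Box H/ACA members had 44 reads in siCINP and 27 in siCtrl, and box C/D members had 94 and 73, with intervals that took in 0 for each class. The 197 other snoRNAs and Cajal body RNAs with a row in either table had 3518 reads in siCINP and 3488 in siCtrl (log2 ratio -0.06, -0.12 to 0.01). By host, GAS5 snoRNAs had 42 reads in siCINP and 35 in siCtrl and SNHG12 snoRNAs had 29 and 17, with intervals that took in 0. SNORA13 of EPB41L4A-AS1 had a row in neither table.

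**Figure D3:**
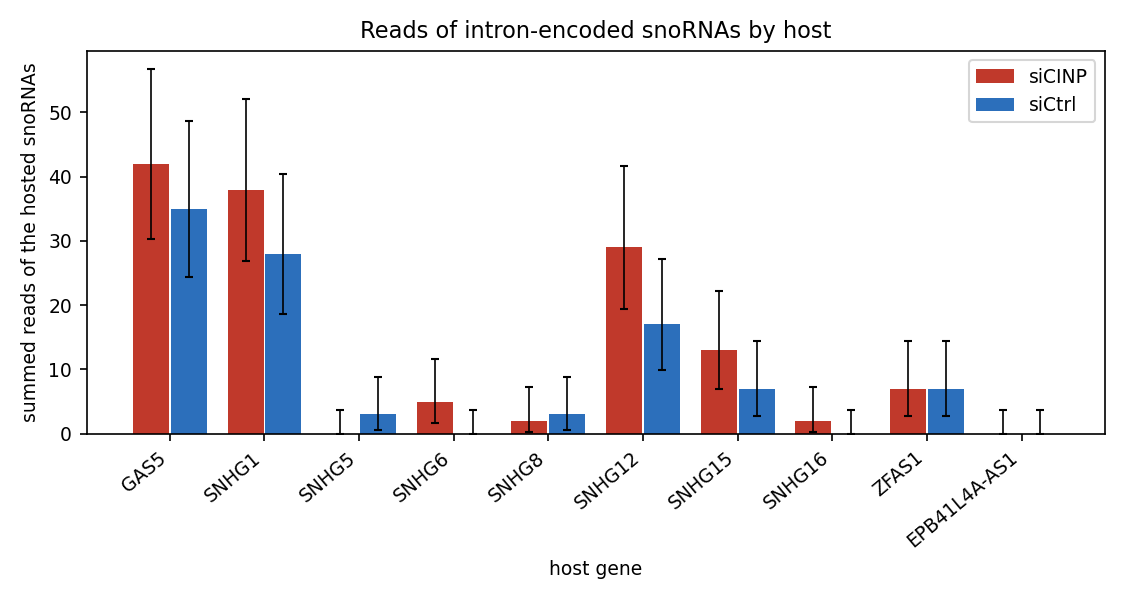
Summed reads of the snoRNAs encoded in the introns of each host, in siCINP (red, left) and siCtrl (blue), with exact 95% Poisson intervals. The GAS5 snoRNAs have 42 reads in siCINP and 35 in siCtrl, and for every host the intervals of the libraries overlap.

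Genes beside or across from the hosts did not all differ in the same direction as the hosts. ZNFX1, which shares 249 exon bases with ZFAS1 on the other strand, had 1925 reads in siCINP and 1690 in siCtrl, a log2 ratio of 0.12 (0.02 to 0.21) opposite in sign to that of ZFAS1. TRNAU1AP, opposite SNHG12, had 254 reads in siCINP and 322 in siCtrl, a log2 ratio of -0.41 (-0.65 to -0.17). SLC3A2, the heavy chain of amino acid transporters next to SNHG1, had 7424 reads in siCINP and 8277 in siCtrl, a log2 ratio of -0.22 (-0.27 to -0.18), while SNHG1 was at 0.10. ZNFX1 and SLC3A2 had fractional counts, and the part of antisense reads in these values was not tested.

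The other noncoding hosts had a median above 0 under each of the 4 scalings. Of 20 listed, 16 had a row in either table and 12 were compared, with 6 intervals above 0, 1 below 0 and a median log2 ratio of 0.25. DANCR, the host of SNORA26 known as an inhibitor of epidermal differentiation, had 735 reads in siCINP and 515 in siCtrl, a log2 ratio of 0.45 (0.28 to 0.61). SNHG4 had 293 and 189 reads (0.56, 0.30 to 0.84) and SNHG7 had 378 and 295 (0.29, 0.07 to 0.51), both with fractional counts, and SNHG21 had 28 and 11. Per length SNHG29, at 503.4 FPKM in siCINP and 499.8 in siCtrl, was above all 10, and it had 5244 reads in siCINP and 5241 in siCtrl. Its log2 ratio was -0.07, and its interval of -0.12 to -0.01 was the one below 0. Of the 12, 8 had fractional counts, SNHG29 among them, and the difference from the 10 hosts was not tested.

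Proteins that package and process snoRNAs had log2 ratios on both sides of 0, with 12 above and 6 below among 18 compared. By the interval 5 lay above 0, 1 lay below and 12 took in 0. Of all compared genes 18.6% lay above 0 and 23.1% below by the interval. The median of the 18 was 0.10 and was above 0 under each scaling. NOLC1, a chaperone of snoRNPs, was the only one 2-fold higher, with 3365 reads in siCINP and 1001 in siCtrl (log2 ratio 1.68, 1.58 to 1.78). NOP58 and NOP56, core proteins of box C/D particles, were at 0.32 (0.21 to 0.43) and 0.20 (0.13 to 0.27). DKC1, the pseudouridine synthase of H/ACA particles, was at 0.68, and NOP56 and DKC1 had fractional counts. FBL, the methyltransferase fibrillarin, had 2142 reads in siCINP and 1899 in siCtrl, a log2 ratio of 0.11 (0.02 to 0.20). Over 35 listed protein-coding snoRNA hosts the median was 0.05, with 15 intervals above 0 and 11 below. Among them RACK1, a ribosome scaffold protein, was lowest at -0.42 (-0.45 to -0.39), and PPAN and EIF4A1 were at 0.96 and 0.40, both with fractional counts.

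The TOP mRNAs of ribosomal proteins and translation factors had medians slightly below 0. The 80 ribosomal protein mRNAs had a median of -0.13, which stayed below 0 under each scaling, at -0.05 with library totals. Of their intervals 3 lay above 0 and 64 below, against 18.6% and 23.1% of all compared genes. Some of the 64 ended close to 0, such as that of RPL23 (-0.10 to -0.0045). Interval counts of the lists beside the hosts were run under TMM only. The other scalings give every gene a higher ratio. RPS24 and RPS12, of the small subunit, were lowest, at -2.07 with fractional counts and at -0.90. The 19 TOP translation factors had a median of -0.08, with 5 above and 10 below. With library totals that median was -0.0014. EEF1A1, the elongation factor that delivers aminoacyl-tRNA, was at -0.24 (-0.25 to -0.23) with fractional counts, while EIF3F and EIF3A, subunits of an initiation factor, were at 0.43 and 0.32. TOR pathway members and TOP-binding proteins had a median of -0.03 over 18 genes, with 2 above and 7 below. It was 0.05 with library totals and 0.02 by upper quartile, where the median of all compared genes was 0.06 and 0.03. In this list TIA1, an RNA-binding protein known to bind TOP mRNAs, was at -0.52 (-0.67 to -0.36), EIF4EBP2 and RPS6KB1 were at -0.49 and -0.39 with fractional counts, and AKT1S1, a TOR complex inhibitor, was at 0.49. LARP1, which binds the TOP cap, had 4716 reads in siCINP and 4322 in siCtrl, a log2 ratio of 0.06 whose interval took in 0.

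Among NMD factors, 3 intervals lay above 0 and 5 below over 19 genes, with a median of -0.01. It was 0.06 with library totals, 0.03 by upper quartile and 0.01 by DESeq2 scaling. The medians of all compared genes had the same rounded values. UPF1, the helicase at the centre of NMD, had 1799 reads in siCINP and 2118 in siCtrl, a log2 ratio of -0.30 (-0.40 to -0.21). The exon junction proteins CASC3 and RBM8A were at 0.29 and 0.27, with fractional counts. Of 19 mRNAs reported to be NMD-sensitive, 1 interval lay above 0 and 14 below, with a median of -0.24 that is close to that of the 10 hosts. RPL3, a ribosomal protein, was lowest, with 7832 reads in siCINP and 12309 in siCtrl (-0.72, -0.76 to -0.68). ATF4 and SRSF3 were at -0.40 and -0.41, GADD45B at -0.47, and HNRNPDL, at 0.64, was the one with an interval above 0. As background, the list also holds ATF4 and genes known to be induced in stress, such as ASNS and DDIT3, and ribosomal protein genes counted above. Counts are per gene, so NMD-sensitive transcripts of these genes were not separated from their other transcripts. The likeness of the medians was not tested.

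**Figure D4:**
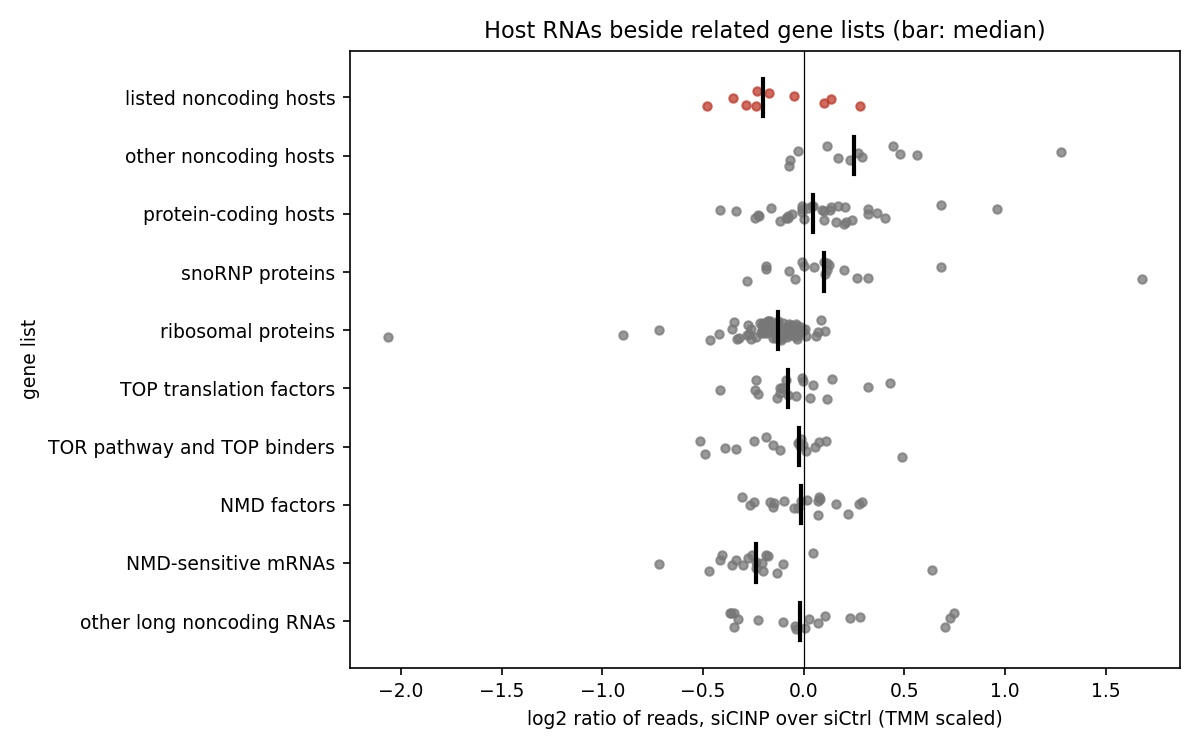
Log2 ratios, siCINP over siCtrl, of the compared genes in each list after TMM scaling (1 point per gene, shifted up or down at random for legibility), with the median as a black bar. The 10 hosts (red) have a median of -0.20, the other noncoding hosts 0.25 and the NMD-sensitive mRNAs -0.24.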

How the data were processed

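Per the file headers, each library's deposited table lists length, expected count and FPKM by gene. Bowtie2, HISAT and hg19 are named in the submitters' processing notes, while versions, counter, annotation and strand setting were not found in the sources used here. Expected counts from the authors' deposited tables estimate reads and were rounded to whole numbers. FPKM was computed by the authors and scales for length and library total. The length column is in bases, weighted over transcripts.

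Gene identifiers were matched to RefSeq symbols (18971 of 19052). TMM factors came from edgeR 4.0.16 in R 4.3.3 and were 1.03 for siCINP and 0.974 for siCtrl. Intervals came from scipy 1.17.1. In ratios, 3 reads replaced any 0. At 20 reads per library the half-width of an interval is 0.97 (log2). Counts within 0.005 of a whole number were taken as whole. By this rule the markers KRT7, KRT8, KRT18, KRT19, CDH1, UPK1A, UPK1B and PECAM1 had fractional counts. Ratios and intervals were checked on simulated data. The members and lists were chosen with earlier results of these data known. Named list genes are up to 4 per list ranked by the distance from 0 to the closer end of the interval, and FBL, SNHG29, LARP1, GADD45B, MALAT1 and the search for TATAA were chosen after values or sequences were seen. DESeq2 1.42.0 size factors served as an alternative scaling. Some genes are not reported here.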

Additional observations from a re-analysis of the deposited data

How the results depend on the processing

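Over the 6 alternatives tried for each host (3 scalings, FPKM with pseudocounts of 0.1 and 1, and thinning of the deeper library), all 60 values stayed inside the host's own counting interval. The largest shift was 0.124. The 3 scalings move every host by the same amount, and thinning took few reads because the library totals were close. That all 60 stayed inside was therefore largely set in advance and says little about robustness. Counts of hosts were closer to their limits. With library totals, upper quartile or DESeq2 scaling 2 hosts lay above 0 in place of 1, and with totals or upper quartile 3 lay below 0 in place of 5. The host median stayed between -0.23 and -0.12 over 19 alternatives. FPKM values have no interval, so host counts were not run on them.

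Of 72 alternative medians of the other lists, 59 stayed inside a rank-based interval of the reported median over the genes of the list. A change of scaling moves every gene by the same amount. The median of all compared genes was 0.06 with library totals and 0.03 by upper quartile. With library totals those of NMD-sensitive mRNAs, TOR pathway members and ribosomal proteins were -0.16, 0.0501 and -0.0520. With upper quartile scaling TOR pathway members were at 0.0159 and ribosomal proteins at -0.0862. With FPKM, NMD factors were at 0.09 for both pseudocounts (0.0896 and 0.0851), TOR pathway members at 0.05 (0.0507 and 0.0496), ribosomal proteins at -0.05 (-0.0519 for both) and NMD-sensitive mRNAs at -0.16 with a pseudocount of 1. With whole counts only, other long noncoding RNAs were at -0.35 over 3 genes. Over all genes, 221 were 2-fold higher and 184 lower, against 62 and 98 with a minimum of 100 reads and 662 and 637 with the 1.5-fold rule. Over all genes, 2430 intervals lay above 0 and 3023 below with TMM, and 2697 and 2748 with DESeq2 scaling. The balance turned to 3479 above and 2179 below with library totals and to 2969 and 2537 by upper quartile. No paired analysis was possible because each group has 1 library.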

Other observations

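Long noncoding RNAs that host no snoRNA were spread around 0. Of 24 listed, 18 were compared, with 2 intervals above 0, 6 below and a median of -0.02. It was 0.06 with library totals, 0.03 by upper quartile and 0.01 by DESeq2 scaling, as was the median of all compared genes. H19, an imprinted RNA, had 5139 reads in siCINP and 6295 in siCtrl, a log2 ratio of -0.36 (-0.41 to -0.31). NEAT1, the scaffold of paraspeckles, and TUG1 were at -0.36 and -0.35, and GABPB1-AS1 was at 0.72. NEAT1 and GABPB1-AS1 had fractional counts. MALAT1, an abundant nuclear-speckle RNA, had 3385 reads in siCINP and 3324 in siCtrl, and no difference was detectable at this depth. Over all 973 compared long noncoding RNA genes the median was 0.06, with 119 intervals above 0 and 91 below.

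The heptamers TGCAAGA and GCAAGAA, singled out in earlier results of these data, were looked for in the transcript of each host that GENCODE links to the deposited RefSeq accession, on the transcript strand. They occurred in 3 of 10 hosts, against 27.0% of 6265 other compared genes with transcripts in the same range of lengths. EPB41L4A-AS1 had 3 sites, in a transcript of 2969 bases where the deposited length is 1194, and SNHG15 and SNHG6 had 1 each. Their log2 ratios were -0.48, -0.35 and -0.05.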
